A study of Mus musculus with 10 samples.

Results

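Newly made RNA was compared between mouse erythroid J2E cells and J2E-KLF3-ER cells, gene by gene, over every named row of the authors' RNA table. Of its 23402 rows, 23309 carry a gene name and are described here. Of these, 10653 reached 2 FPKM (fragment counts scaled to transcript length and to library size) in at least 1 of the 2 groups and entered the comparison, and 3710 are listed at 0 in both. The series holds 10 libraries, of which 6 are of labelled RNA. J2E, with 3 libraries, is a wildtype erythroid line immortalised from fetal liver. J2E-KLF3-ER, also with 3 libraries, is that line with KLF3 joined to an estrogen receptor domain, which makes it inducible by tamoxifen, and its libraries come from clones A, C and E. Both groups were given 4-hydroxytamoxifen at 200 nM, with the exception of the third J2E library, which received ethanol, and all 6 were labelled with 500 µM 4-thiouridine (4sU) for 30 minutes. No J2E-KLF3-ER library without tamoxifen was analysed here, so the presence of the fusion, its activation and differences between clones and the parent line cannot be told apart.

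A cell takes up 4sU and builds it into RNA while the RNA is transcribed, so that a short pulse followed by biotin capture enriches what was made during the pulse, introns and short-lived RNA included. Erythroid precursors devote much of their transcription to hemoglobin, heme and membrane skeleton genes while they still divide. KLF1 activates many of these genes through CACCC-type elements, and KLF3, which KLF1 itself activates, binds similar elements and recruits corepressors.

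The authors give 1 pooled FPKM value per group. No spread between libraries can therefore be set beside a level, the depth of each library is unknown, and no test could be run here. Levels below are these pooled values, and a log2 ratio is log2 of (FPKM + 1) in J2E-KLF3-ER over (FPKM + 1) in J2E, a scale that understates changes of low genes. A gene is called changed only where the q-value of the authors' deposited table is below 0.05. That table tested 9619 named rows and called 262 of them (2.72%), of which 79 (0.821%) were higher and 183 (1.9%) were lower in J2E-KLF3-ER. Whether the J2E libraries came from separate cultures is not stated in the labels, and the p-values then reflect no more than the spread among these libraries, which may be technical. In such bulk RNA, fewer cells that transcribe a gene and less RNA per cell cannot be told apart. The gene classes and lists below were chosen with earlier results of these data known, and some share members. Their called shares stand beside the share of all tested rows as a description and are no test.

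Small noncoding RNA rows, those named as microRNAs, snoRNAs, scaRNAs or similar short RNAs, held the highest levels and the widest differences. They made up 31.1% of the summed FPKM in J2E and 35.4% in J2E-KLF3-ER from 282 rows at 2 FPKM or more. FPKM divides by length, so a short transcript needs few reads for a high value. Of these 282 rows, 190 were at least 2-fold apart and 133 were listed at 0 in 1 of the groups, whereas 225 of the other 10371 rows were 2-fold apart and 4 were listed at 0. A listed 0 can be a failed estimate: Lars2 and the ribosomal RNA row Rn45s, which every cell transcribes, are listed at 0 in both groups with the status that marks too much data. Of the 167 small noncoding RNA rows tested, 2 were called in the authors' deposited table, both lower. That is 1.2%, against 1.9% of all tested rows. They were Mir669a-2, at 53.4 FPKM in J2E and listed at 0 in J2E-KLF3-ER, and Mir22hg, a longer microRNA host gene, at 7.55 and 3.15 FPKM.

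MicroRNAs are cut from hairpins to about the length of a short oligonucleotide and find targets through their seed, bases 2 to 8. Of 617 microRNA rows 184 reached 2 FPKM, 109 of them were listed at 0 in 1 group and 140 were at least 2-fold apart. The 4 rows that were highest by the lower of their 2 group values, among rows with a mature sequence in RefSeq (GRCm38.p6), are shown with the seed in capitals because they are the microRNA loci with substantial signal in both groups, and no 2 of them share a seed.
miR-690: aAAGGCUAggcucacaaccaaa
miR-1983: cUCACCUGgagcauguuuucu
miR-703: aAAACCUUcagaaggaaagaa
miR-5121: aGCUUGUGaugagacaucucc
Mir690 stood at 654 FPKM in J2E and 816 FPKM in J2E-KLF3-ER, and Mir1983 at 616 and 898 FPKM. Mir703 stood at 838 and 449 FPKM, and Mir5121 at 337 and 903 FPKM. None of the 4 was called in the authors' deposited table, and they lie on both sides of equality. These rows measure reads over the annotated locus in labelled RNA and do not show how much mature microRNA the cells hold.

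SnoRNAs guide the methylation and pseudouridylation of ribosomal RNA and are mostly spliced out of introns of genes for ribosomal proteins and translation factors. Of 114 snoRNA and scaRNA rows 92 reached 2 FPKM, with median levels of 311 FPKM in J2E and 283 FPKM in J2E-KLF3-ER, and none was called in the authors' deposited table. The most abundant was Snord55, at 9064 FPKM in J2E and 14328 FPKM in J2E-KLF3-ER. The small RNAs named here were taken from the highest rows of either group. Snord33, Snord93 and Mir5117 entered only through J2E-KLF3-ER, and Snord83b and Snord99 only through J2E. The directions of these rows were therefore partly fixed by the choice. The 4 snoRNAs shown for Rpl13a were all higher in J2E-KLF3-ER. Of these, Snord32a, Snord34 and Snord35a were among the highest rows of both groups. Snord32a stood at 7132 and 13920 FPKM, Snord33 at 803 and 1734 FPKM, Snord34 at 2862 and 5793 FPKM and Snord35a at 3273 and 8214 FPKM, while Rpl13a itself stood at 106 and 133 FPKM. Others went against the gene they are listed with: Snord83b stood at 1935 FPKM in J2E and 492 FPKM in J2E-KLF3-ER while Rpl3, its partner, rose from 230 to 340 FPKM according to the authors' deposited table. In Snhg12, a noncoding host gene at 168 and 204 FPKM, Snora16a was near level at 1283 and 1265 FPKM while Snord99 stood at 1388 and 194 FPKM. Snord93 and Mir5117 are listed at 0 in J2E and at 1708 and 1874 FPKM in J2E-KLF3-ER, both with too little data to be tested by the authors.

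Without the small noncoding RNA rows, the highest rows of both groups held a processing RNA, a translation factor, histones and a membrane skeleton gene. The highest row was Rmrp, the RNA of the RNase MRP complex, at 3517 FPKM in J2E and 3267 FPKM in J2E-KLF3-ER. Next came Eef1a1, which delivers transfer RNAs to the ribosome, at 1236 and 1358 FPKM, and Add2, which encodes the red cell membrane skeleton protein beta-adducin, at 984 and 869 FPKM. Histone genes followed, with Hist2h2bb at 897 and 994 FPKM, Hist1h4d at 744 and 728 FPKM and Hist2h4 at 667 and 644 FPKM. The nuclear RNA Malat1 stood at 807 and 917 FPKM. Npm1, the nucleolar protein nucleophosmin, stood at 480 and 651 FPKM. The chaperones Hspa8, at 394 and 481 FPKM, and Hsp90aa1, at 393 and 440 FPKM, and the cytoskeletal gene Actb, at 453 and 360 FPKM, were also among the 20 highest of J2E. None of the rows from Rmrp to Actb named here was called in the authors' deposited table. The highest called row of all was the beta globin row Beta-s, which fell from 453 to 284 FPKM according to the authors' deposited table.

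**Figure D1:**
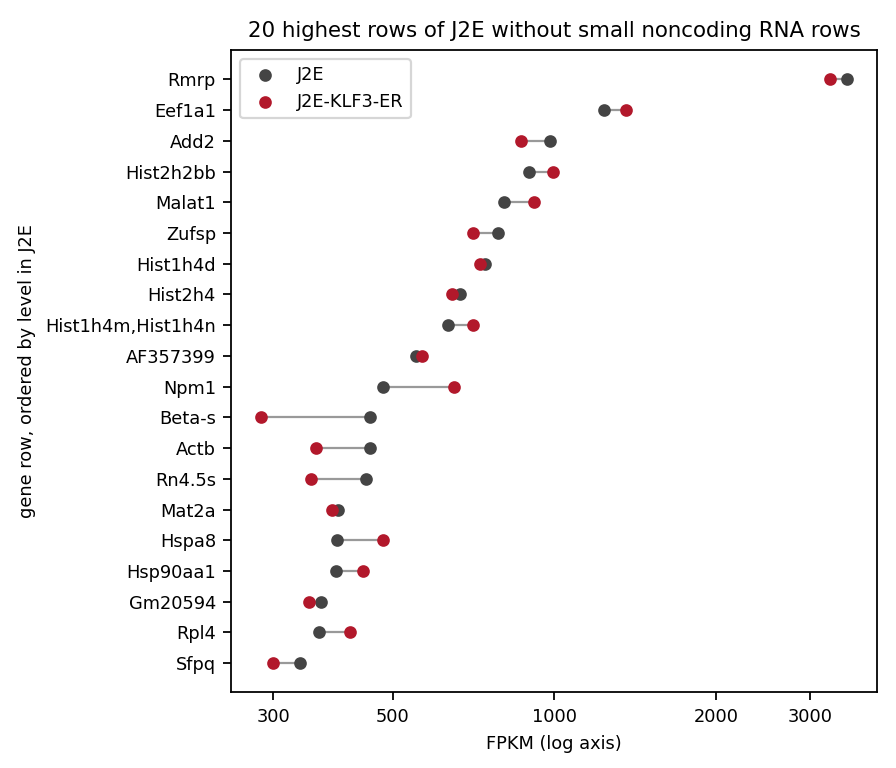
Pooled FPKM on a log axis of the 20 highest J2E rows left after small noncoding RNA rows are taken out, in J2E (grey) and J2E-KLF3-ER (red), with 1 value per group. Rmrp, a short RNA that the grouping by name left in, leads at 3517 and 3267 FPKM. The grouping also left in AF357399, at 552 and 568 FPKM, and Rn4.5s, at 446 and 353 FPKM, whose transcript lengths were not checked. Most pairs lie close together, and Beta-s shows the widest gap, 453 against 284 FPKM.

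Without the small noncoding RNA rows, summed FPKM was spread over many genes in both groups. It is scaled to length and is not a share of transcription. Over all named rows the 10 highest held 13.5% of summed FPKM in J2E and 20.9% in J2E-KLF3-ER, and the 100 highest 31.1% and 36.7%. Leaving the small noncoding RNA rows out but keeping Rmrp, AF357399, Rn4.5s and any others the names missed, the 10 highest held 4.94% in J2E and 4.86% in J2E-KLF3-ER. The 100 highest held 15.2% and 15.4%, and the 1000 highest 45.2% and 45.7%. Of the 100 highest rows of J2E, 85 were also among the 100 highest of J2E-KLF3-ER, and 27 encode ribosomal proteins, 16 clustered histones and 6 hnRNP or SR splicing proteins. Over all named rows 11467 reached 1 FPKM in J2E and 11393 in J2E-KLF3-ER, and 405 and 404 reached 100 FPKM. Across the 10371 rows at 2 FPKM or more that are not small RNAs, levels of the groups correlated with Pearson's r = 0.961 on log2(FPKM + 1) and Spearman's rho = 0.962, a description across genes, which are not independent replicates.

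Most of these genes differed little between the groups: 90.3% of the 10371 rows lay within 1.5-fold, with a median log2 ratio of 0.02 and quartiles of -0.19 and 0.21. At least 2-fold on the log2(FPKM + 1) scale were 73 rows that were higher (0.704%) and 152 that were lower (1.47%) in J2E-KLF3-ER. With the small RNA rows the numbers were 168 (1.58%) and 247 (2.32%) of 10653. Size and call often parted ways. Of the 225 rows at least 2-fold apart, 79 were called in the authors' deposited table, and 181 of its 262 called rows were under 2-fold.

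**Figure D2:**
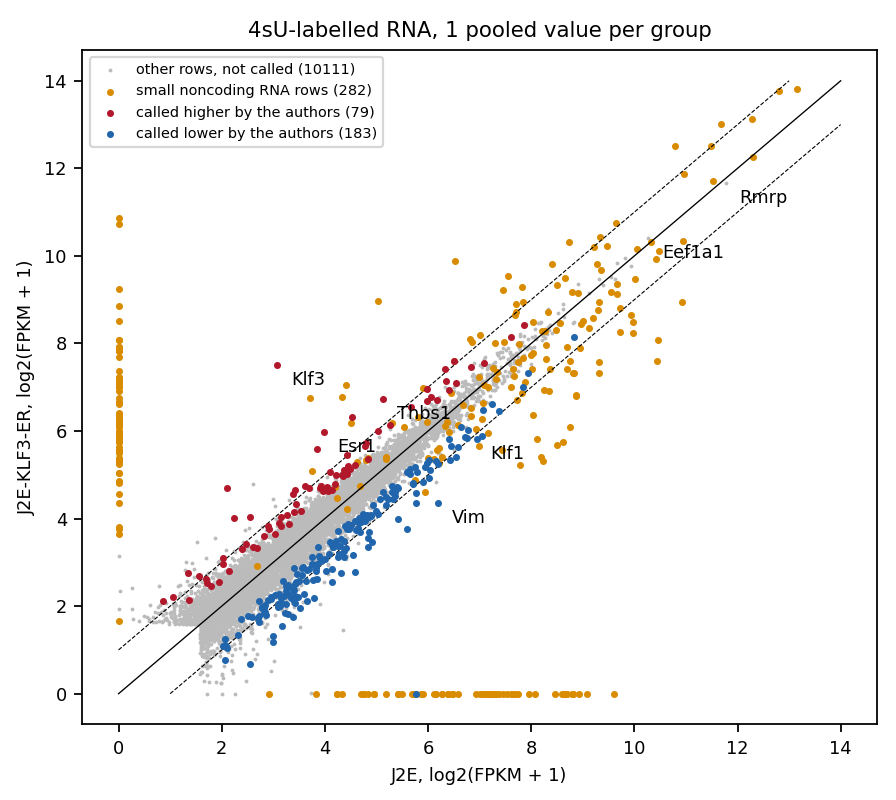
Pooled log2(FPKM + 1) of every named row at 2 FPKM or more, J2E on the horizontal and J2E-KLF3-ER on the vertical axis; the solid line marks equality and the dashed lines 2-fold. Small noncoding RNA rows (282, orange) spread widest and many lie on an axis at 0, while the 79 called higher (red) and 183 called lower (blue) rows lie mostly close to the bulk.

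The cells carried the RNA of the erythroid lineage. All 13 rows of the erythroid marker list passed 2 FPKM in at least 1 group, with summed levels of 811 FPKM in J2E and 612 FPKM in J2E-KLF3-ER. Of these, 5 (38.5%) fell in the authors' deposited table, against 1.9% of all tested rows: Klf1 from 122 to 55.6 FPKM, the erythropoietin receptor gene Epor from 85.4 to 39.4 FPKM, the blood group genes Ermap from 70.0 to 38.6 FPKM and Kel from 32.7 to 20.8 FPKM, and the anion exchanger Slc4a1 (band 3) from 39.2 to 20.8 FPKM. Others were not called: Tfrc, which imports iron-loaded transferrin, stood at 102 and 101 FPKM, the membrane skeleton gene Ank1 at 84.5 and 85.8 FPKM, and the main erythroid factor gene Gata1 at 30.6 and 25.2 FPKM. Megakaryocyte markers, from the lineage that shares a progenitor with erythroid cells, were present too, with 5 of 10 past 2 FPKM, summed levels of 194 and 224 FPKM and none called in the authors' deposited table. Pf4 stood at 80.1 and 92.4 FPKM and Itga2b at 74.98 and 80.8 FPKM, whereas the defining genes Vwf and Itgb3 were at or below 0.116 FPKM. Of 11 myeloid markers 4 passed the floor, with Csf1r at 23.2 and 18.5 FPKM, sums of 36.9 and 28.0 FPKM, and Cd14 and Ctsg listed at 0. The 12 lymphoid markers were all below 1 FPKM, and of 7 mast cell markers none passed, with Tpsb2 highest at 1.96 FPKM and Fcer1a, Mcpt4 and Mcpt8 listed at 0. Of 8 liver markers Afp alone passed, at 5.07 and 2.31 FPKM, with Alb at 0.0725 FPKM in J2E and listed at 0 in J2E-KLF3-ER. The fibroblast list summed to 32.0 and 14.6 FPKM, mostly from Lum, which fell from 28.0 to 11.8 FPKM according to the authors' deposited table, with Col3a1 at 3.75 and 2.59 FPKM and Col1a1 and Col1a2 below 0.1 FPKM. The part these other markers play in the gene group results was not tested.

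Erythroid genes differed member by member. Of the 19 erythroid transcription and signalling genes past the floor, 17 had a log2 ratio below 0 (median -0.27, against 0.02 over all genes), and 5 of the 18 tested (27.8%) fell in the authors' deposited table, where 1.9% of all tested rows fell. Besides Klf1 and Epor these were the cell cycle factor E2f2 from 92.3 to 41.1 FPKM, the repressor Gfi1b from 40.1 to 23.3 FPKM and the zinc finger repressor Zbtb7a from 51.3 to 26.7 FPKM. Lyl1 was level at 92.8 and 92.4 FPKM and Tal1 stood at 50.6 and 46.9 FPKM, so the list did not move as 1 block. In heme synthesis 1 of 13 tested genes fell in the authors' deposited table, 7.69% against 1.9% of all tested rows. It was Alad, which condenses aminolevulinate to porphobilinogen, from 16.7 to 6.24 FPKM. Alas2, the erythroid enzyme of the first step, stood at 6.21 and 9.28 FPKM (q = 0.262 in the authors' deposited table), and Urod, Cpox, Ppox and Fech were within 1.5-fold. None of 10 iron genes past the floor was called in the authors' deposited table, and the ferritin gene Ftl1 stood at 214 and 166 FPKM.

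Globin rows need care, because the adult genes are near-identical copies whose reads the counting may have split. The rows listed at the beta globin locus stood at 453 and 284 FPKM for Beta-s (q = 0.00408 in the authors' deposited table), at 91.6 and 96.1 FPKM for the joined row Hbb-b1,Hbb-b2, and at 12.4 and 0.00488 FPKM for Hbb-b2, which shares the interval of the joined row. At the alpha locus Hba-a2 stood at 133 and 103 FPKM, the joined row Hba-a1,Hba-a2 over the same interval at 0.0208 and 4.07 FPKM, and the embryonic zeta-type gene Hba-x at 42.9 and 42.5 FPKM. Summed over all 10 globin rows, the level was 744 FPKM in J2E and 537 FPKM in J2E-KLF3-ER. Embryonic Hbb-y and Hbb-bh1 were near the floor, at 2.32 and 0.302 FPKM in J2E.

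Genes of the protein synthesis machinery stood slightly higher in J2E-KLF3-ER as whole classes, mostly without calls on single genes. Of 82 cytosolic ribosomal protein genes past the floor, 71 had a log2 ratio above 0, with a median of 0.30 and median levels of 118 and 147 FPKM. Of these genes 8 rose and none fell in the authors' deposited table, 9.76% of those tested, where 0.821% of all tested rows rose. Summed levels were 6759 and 8199 FPKM for the large subunit and 4617 and 5586 FPKM for the small subunit, with medians of 0.30 for each. Rpl41, the smallest ribosomal protein, rose from 79.8 to 171 FPKM, Rps23, at the decoding centre, from 62.3 to 124 FPKM, and Rpl37a from 37.5 to 69.4 FPKM according to the authors' deposited table. Rpl3 and Rps16 were called as well, at 230 and 340 and at 113 and 176 FPKM, all according to the authors' deposited table. Rpl26 shows a log2 ratio of 3.14 from a level of 0.00403 FPKM in J2E to 7.83 FPKM, with q = 0.724 in the authors' deposited table. Rps27 stood the other way, at 71.8 and 44.0 FPKM (q = 0.482 in the authors' deposited table). Many ribosomal protein genes have processed pseudogenes, so the counting could divide their reads as well.

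Around the ribosome, 44 of 62 translation factors, 32 of 36 aminoacyl-tRNA synthetases and 58 of 76 mitochondrial ribosomal proteins had ratios above 0, with medians of 0.13, 0.17 and 0.16. Eef2, which translocates the ribosome, rose from 134 to 188 FPKM, Qars, which charges glutamine transfer RNA, rose from 21.4 to 33.9 FPKM, and Eif4ebp1, an inhibitor of cap-dependent initiation, fell from 53.8 to 22.9 FPKM according to the authors' deposited table. No mitochondrial ribosomal protein gene was called in the authors' deposited table. All 14 eIF3 rows passed the floor, 12 of them above 0, with a summed level of 682 and 819 FPKM and no call in the authors' deposited table. Ptma, a small acidic nuclear protein tied to proliferation, rose from 194 to 281 FPKM according to the authors' deposited table. Gas5, a snoRNA host gene of the same terminal-oligopyrimidine type as ribosomal protein genes, rose from 83.6 to 121 FPKM according to the authors' deposited table.

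Nuclear genes of oxidative phosphorylation had a median above 0 with no call. Among 89 such genes past the floor 67 had ratios above 0, with a median of 0.23 and levels of 16.2 and 20.4 FPKM, and none was called in the authors' deposited table. By complex, the median was 0.30 for the 44 complex I genes and 0.30 for the 17 ATP synthase genes, 0.18 for the 4 genes of complex II and 0.13 for the 14 genes of complex IV. The 9 complex III genes had a median of -0.04, with 4 ratios above 0 and summed levels of 293 and 308 FPKM. Whether the complexes differ from each other was not tested. Single genes went far either way at low level: Ndufb3 stood at 4.79 and 12.8 FPKM, whereas Ndufs5 stood at 3.78 and 0.00121 FPKM and the heart-type subunit Cox7a1 at 6.74 and 0.435 FPKM. Proteasome genes had 38 of 45 ratios above 0 (median 0.19). Of them 1 (2.22% of those tested), Psma2 of the core particle, rose from 9.73 to 24.1 FPKM according to the authors' deposited table. Among 32 snRNP and LSM genes, which build the spliceosome, Lsm7 rose from 13.3 to 47.5 FPKM and Sf3b2 from 15.4 to 25.2 FPKM according to the authors' deposited table, with a class median of 0.16. These 2 genes are 6.25% of those tested, against 0.821% of all tested rows called higher. In cholesterol synthesis 21 of 23 genes had ratios above 0 (median 0.36) and 4 of the 22 tested rose in the authors' deposited table (18.2%, against 0.821% of all tested rows), among them Idi1, an isomerase early in the pathway, from 20.6 to 42.8 FPKM and Insig1, a sterol sensor, from 70.9 to 104 FPKM.

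**Figure D3:**
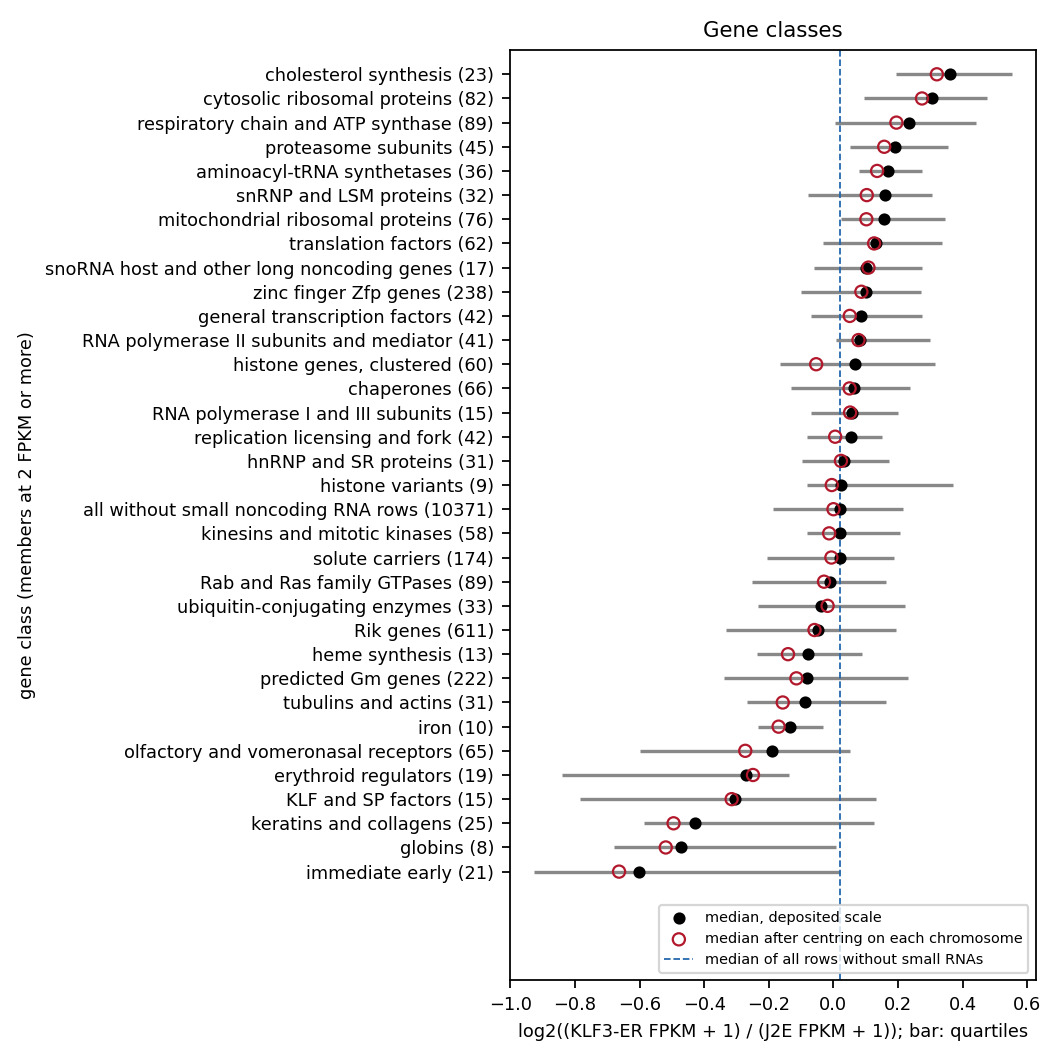
Median log2 ratio of each gene class (black) with the quartiles of its members (bar), the same median after the median of each chromosome is taken off (red circle), and the median of all rows without small RNAs (dashed line); members at 2 FPKM or more are in parentheses. Cholesterol synthesis (0.36) and ribosomal proteins (0.30) lie at the upper end and immediate early genes (-0.60) at the lower, while most class medians are within 0.2 of 0.

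Genes of DNA replication and division stood level. The median log2 ratio was 0.05 for 42 replication genes and 0.02 for 58 kinesins and mitotic kinases. The 6 MCM2 to MCM7 helicase genes all had ratios above 0, with sums of 330 and 371 FPKM and no call in the authors' deposited table. Pcna, the sliding clamp, stood at 148 and 156 FPKM, and Top2a at 100 and 129 FPKM. In the replication class 1 gene, the polymerase epsilon subunit gene Pole4, fell from 26.4 to 14.3 FPKM according to the authors' deposited table. That is 2.38% of those tested, against 1.9% of all tested rows.

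Clustered histone genes, transcribed in S phase to package new DNA, made up 2.62% of summed FPKM in J2E and 2.48% in J2E-KLF3-ER. Of 60 rows past the floor 33 had ratios above 0, and the class median of 0.07 became -0.05 once each chromosome's median was taken off. Sums by histone were 3148 and 3244 FPKM for H4, 2256 and 2319 FPKM for H2B, 1619 and 1508 FPKM for H3, 671 and 830 FPKM for H2A and 646 and 672 FPKM for H1. Single copies went both ways. Of 56 tested rows 2 rose and 2 fell in the authors' deposited table, 3.57% each, against 0.821% and 1.9% of all tested rows. Hist1h2bj rose from 89.6 to 192 FPKM and Hist3h2a from 17.6 to 30.9 FPKM, while the neighbours Hist2h3c2 and Hist2h3c1 fell from 94.4 to 48.7 and from 51.3 to 27.3 FPKM, all in the authors' deposited table. Histone copies are alike in sequence, and how the counting shared reads between them is not given in the sources used here.

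Tubulin genes were among the genes that fell. Of 31 tubulin and actin genes past the floor 3 fell and none rose in the authors' deposited table, 9.68% of those tested against 1.9% of all tested rows called lower. These were the beta tubulins Tubb4b, from 245 to 158 FPKM, and Tubb2b, from 8.91 to 3.76 FPKM, and the alpha tubulin Tuba1b, from 60.7 to 35.3 FPKM, all according to the authors' deposited table. Over 24 tubulin rows, those of tubulin complex proteins included, the sum was 617 and 462 FPKM, and 2 of 14 past the floor had ratios above 0. Actb stood at 453 and 360 FPKM (q = 0.249 in the authors' deposited table). Vim, the intermediate filament gene that erythroid cells shut down as they mature, fell from 72.3 to 19.5 FPKM according to the authors' deposited table, a log2 ratio of -1.84.

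Large classes without a common function stayed near the middle. Of 174 solute carriers past the floor 3 fell in the authors' deposited table, band 3 among them, which is 1.97% of those tested and close to the 1.9% of all tested rows. Slc43a1, an amino acid carrier, fell from 132 to 58.0 FPKM and the riboflavin carrier Slc52a2 from 26.2 to 15.6 FPKM. The 238 zinc finger genes named Zfp had a median of 0.10, and 2 rose (0.909% of those tested) and 6 fell (2.73%) in the authors' deposited table, with Zfp62 rising from 8.61 to 15.9 FPKM and Zfp771 falling from 19.6 to 7.70 FPKM according to the authors' deposited table. Of long noncoding genes, Neat1, the scaffold RNA of paraspeckles, fell from 63.7 to 29.5 FPKM according to the authors' deposited table, whereas its neighbour Malat1 was not called. Gene models with Rik names (611 past the floor) had a median of -0.05 and those with Gm names (222) of -0.08. Of the Rik rows 2 rose (0.407% of those tested) and 7 fell (1.43%) in the authors' deposited table, and of the Gm rows 1 rose (0.595%) and 5 fell (2.98%). G730013B05Rik rose from 22.05 to 79.0 FPKM, 1810058I24Rik fell from 29.1 to 10.1 FPKM and Gm10318 fell from 9.49 to 2.39 FPKM according to the authors' deposited table. Immediate early genes had the lowest median of the plotted classes, -0.60, with 8 of 21 falling (38.1%) and 2 rising (9.52%) in the authors' deposited table, against 1.9% and 0.821% of all tested rows. KLF and SP factor genes, Klf3 included, had a median of -0.31 with 5 of 15 falling (33.3%) and 2 rising (13.3%) in the authors' deposited table, where all tested rows gave 1.9% and 0.821%. These shares are not independent: Klf10 counts in both groups, and Klf1 also counts among the erythroid regulators and erythroid markers.

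With no list in view, all symbols were grouped by their letters up to the first digit. This gave 120 families of at least 10 genes past the floor, 3415 genes in all, of which 75 had a median above 0. The families at the upper end were Ndufa (0.42, 13 genes), Ndufb (0.34, 10 genes), Rpl (0.31, 46 genes), Rps (0.26, 41 genes), Psmd (0.22, 14 genes) and Dcaf (0.21, 11 genes). Complex I subunits, ribosomal proteins and proteasome cap subunits make up most of 5 of the 6 upper families. A shared symbol is not a shared function: Rps also holds pseudogene rows and kinases such as Rps6kb1, which are not ribosomal proteins. At the lower end stood Krtap, Pcdhb, Serpina, Vmn, Klf and Col, with medians of -0.59, -0.52, -0.34, -0.34, -0.32 and -0.29 over 12, 15, 11, 18, 11 and 10 genes. These ends were picked by their values and carry no test.

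The single genes furthest apart were mostly low. Among the 15 furthest lower, without small RNAs, Gm or Rik models and joined rows, 9 were below 10 FPKM in both groups, 5 were called and 4 were not tested in the authors' deposited table. The called ones were Btnl1, a butyrophilin-like membrane gene (4.88 to 0.607 FPKM), Vim, the TGF-beta-inducible factor gene Klf10 (47.2 to 12.5 FPKM), Lrrc10 (7.02 to 1.25 FPKM) and Dusp1, a phosphatase that switches off MAP kinases (23.1 to 5.88 FPKM), which all fell in the authors' deposited table. Klf10 lies on chromosome 15 at 38224167 to 38230462 and Dusp1 on chromosome 17 at 26642535 to 26645417 (mm9). Pet117, a mitochondrial assembly factor gene at 19.4 and 1.75 FPKM, had a wider ratio than Vim but q = 0.655 in the authors' deposited table. Epyc, at 2.98 and 0.178 FPKM, was not tested; Epyc and Lum encode proteoglycans of 1 family.

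Among the 15 furthest higher, 6 were called in the authors' deposited table, 2 were not tested and 8 were below 10 FPKM in both groups. Klf3, on chromosome 5 at 65194761 to 65221368 (mm9), stood at 7.46 FPKM in J2E and 180 FPKM in J2E-KLF3-ER, and how many reads of the fusion transcript this row takes was not tested. Esr1, an estrogen receptor gene, rose from 14.7 to 62.4 FPKM according to the authors' deposited table. The fusion holds an estrogen receptor domain, and how many of its reads the Esr1 row takes was not tested either. Pilrb2, an immunoglobulin-like receptor gene, rose from 3.29 to 24.9 FPKM, Cited2, a coactivator-binding regulator, from 3.73 to 15.1 FPKM and Thbs1, a secreted matrix protein gene, from 34.1 to 105 FPKM according to the authors' deposited table, and Lsm7 was the sixth. Cdkn2a, the tumour suppressor locus at which immortalised lines often carry changes, stood at 0.206 and 4.32 FPKM with q = 0.652 in the authors' deposited table.

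**Figure D4:**
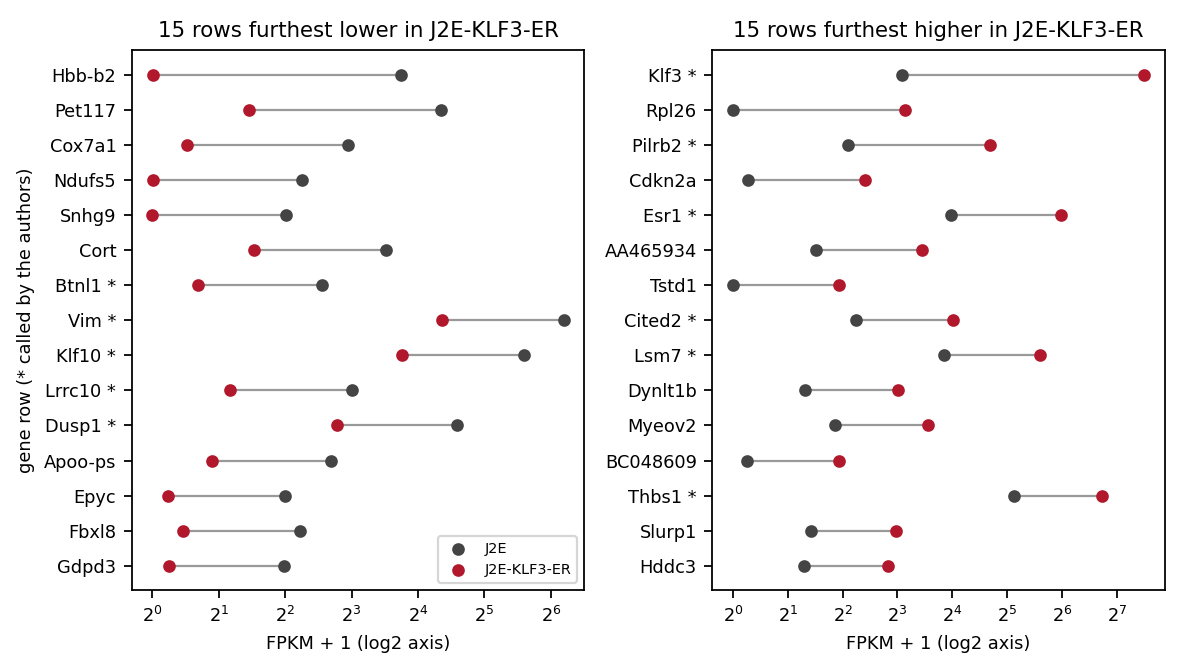
Pooled FPKM + 1 on log2 axes of the 15 rows furthest lower (left) and furthest higher (right) in J2E-KLF3-ER (red) against J2E (grey), with a star where the authors called the row. Of 30 rows 11 carry a star, and Klf3 has the widest gap, 7.46 against 180 FPKM before 1 is added.

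The most abundant called rows went both ways. Besides those above, Ccnl1, a cyclin of splicing and transcription, fell from 228 to 128 FPKM, the immediate early gene Ier2 from 165 to 87.4 FPKM, and Prdx2, the main peroxiredoxin of red cells, from 109 to 64.1 FPKM according to the authors' deposited table. Gata2, a factor of early progenitors, fell from 99.0 to 67.4 FPKM and Ankrd10 from 133 to 88.1 FPKM according to the authors' deposited table. The smallest called difference was 0.49 among rising and 0.51 among falling genes on the log2(FPKM + 1) scale, and the medians were 0.79 and 0.88.

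The called share was highest among short loci. Over 5 equal bins of locus length, without small RNAs, 5.24% of tested rows were called in the authors' deposited table in the shortest bin (up to 7506 bases) and 3.70%, 1.84%, 1.73% and 1.41% in the next ones. The quartiles of the log2 ratio narrowed from -0.31 and 0.29 in the shortest to -0.17 and 0.15 in the longest bin. Over 5 bins of mean level it was between 2.21% in the lowest and 3.92% in the highest. Immediate early, histone, tubulin and ribosomal protein genes are compact genes, and the part of length in their results was not tested.

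Chromosomes were offset against each other. With chromosome names sorted as text, the first 11 (1 and 10 to 19) had medians between 0.01 and 0.18, and the other 9 (2 to 9 and X) between -0.06 and -0.00. The largest median was that of chromosome 13. Taking each chromosome's median off left 0.27 for cytosolic ribosomal proteins, 0.19 for oxidative phosphorylation, 0.32 for cholesterol synthesis and -0.25 for erythroid regulators. Mitochondrial ribosomal proteins and snRNP and LSM genes each went from 0.16 to 0.10. The authors' calls were taken as deposited and were not adjusted for the offset. Chromosome 13 held 12 genes called higher and 3 lower, chromosome 2 held 3 and 19, and chromosome 10, of the first 11, held 8 and 18. The cause of the offset was not tested.

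**Figure D5:**
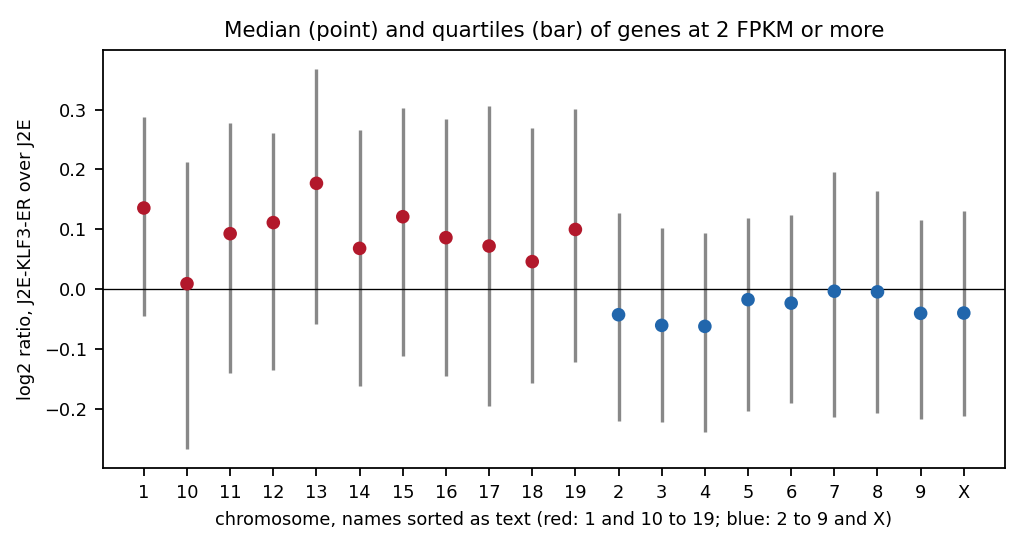
Median log2 ratio (point) with quartiles (bar) of genes at 2 FPKM or more on each chromosome, in text order of the names. The 11 chromosomes at the left (red) have medians from 0.01 to 0.18, the 9 at the right (blue) from -0.06 to -0.00, and the bars of all overlap.

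Promoter binding was set beside the RNA with the authors' deposited peak lists, which hold 1 KLF3 library from clone C and 1 KLF1 library from K1-ER cells, Klf1-null erythroblasts with an inducible KLF1. Genes with a peak of both factors within 1 kb of the start (899) had a median log2 ratio of -0.09, and 44 of 847 tested (5.19%) were called lower and 3 higher in the authors' deposited table. Genes with a KLF3 peak alone (2047) had a median of 0.01, with 1.39% called lower, close to the 7202 genes with neither peak, at 0.04 and 1.56%. The 204 genes with a KLF1 peak alone had a median of -0.14, with 4.89% called lower in the authors' deposited table.

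The 250 bases before the start are shown for the called genes with a KLF3 peak within 1 kb that stood furthest lower (Vim, Dusp1) and furthest higher (Hibadh, Rps23), leaving out Klf3. Capitals mark CCNCNCCC, a CACCC-type motif, on either strand, with overlapping matches joined. It occurs in 45.9% of the 32851 promoters of the RefSeq table (GRCm38.p6) over this length, in 65.7% of the 8352 genes past the floor whose promoter could be matched, and in 83.0% of the 2429 such genes with a KLF3 peak. The 65.7% includes the genes with a KLF3 peak. Among called genes alone fewer than 80% had a matched promoter (76.2% of falling and 77.2% of rising), and no share over them is given here.
Vim: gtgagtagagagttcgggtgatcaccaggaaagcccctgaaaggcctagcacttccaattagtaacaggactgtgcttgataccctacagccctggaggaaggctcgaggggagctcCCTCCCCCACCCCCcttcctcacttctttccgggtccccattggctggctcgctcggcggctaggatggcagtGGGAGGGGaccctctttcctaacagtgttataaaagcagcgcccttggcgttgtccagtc
Dusp1: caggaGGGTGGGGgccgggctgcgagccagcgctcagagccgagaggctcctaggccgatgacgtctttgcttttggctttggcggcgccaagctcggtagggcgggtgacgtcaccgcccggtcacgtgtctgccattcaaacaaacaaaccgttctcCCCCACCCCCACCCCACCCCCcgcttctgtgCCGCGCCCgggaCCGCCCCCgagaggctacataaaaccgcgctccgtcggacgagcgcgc
Hibadh: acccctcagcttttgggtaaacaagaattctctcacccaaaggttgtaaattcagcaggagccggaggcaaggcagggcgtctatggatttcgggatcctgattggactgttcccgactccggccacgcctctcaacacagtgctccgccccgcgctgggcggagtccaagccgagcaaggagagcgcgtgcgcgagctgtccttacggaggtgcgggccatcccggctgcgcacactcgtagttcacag
Rps23: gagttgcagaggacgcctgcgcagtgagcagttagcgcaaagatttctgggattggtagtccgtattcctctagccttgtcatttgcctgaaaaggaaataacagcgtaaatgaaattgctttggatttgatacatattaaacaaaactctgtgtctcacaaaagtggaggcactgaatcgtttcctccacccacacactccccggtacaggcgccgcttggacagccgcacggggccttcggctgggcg
On GRCm38.p6 these stretches are chr2:13574061-13574310 on the plus strand for Vim, chr17:26508473-26508722 on the minus strand for Dusp1, chr6:52640301-52640550 on the minus strand for Hibadh and chr13:90922872-90923121 on the plus strand for Rps23. Vim holds 4 matches and Dusp1 8, counted with overlaps, and Hibadh and Rps23 hold 0. The next falling genes in that order, Sertad3 and Nrtn, hold 1 and 2. These genes were picked by their ratios, so their matches say nothing of falling against rising genes. Hibadh, a valine breakdown enzyme gene, rose from 11.3 to 25.9 FPKM according to the authors' deposited table. Vim and Rps23 also have a KLF1 peak within 1 kb. A match is a description of the letters and not a binding site.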

How the data were processed

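RNA labelled with 4sU was measured in 6 libraries, 3 of J2E and 3 of J2E-KLF3-ER. Per the file headers, the authors deposited FPKM as 1 pooled value per group, together with their log2 fold change, p-value, q-value and a score, the statistic of their test. The authors' deposited peak lists give an enrichment ratio (fold) per peak, and the peak lists' distance to the nearest start was used. TopHat2 2.0.10, MACS 1.4.2, MACS2 and the build mm9 are named in the submitters' processing notes. What each tool did, and which made the RNA test, is not given in the sources used here. Depth is unknown, and no precision can be set beside an FPKM value.

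The 93 unnamed rows were dropped, and 102 rows that join several symbols were kept. Because values are pooled, the fallback of the design was used: the authors' q-value below 0.05 is the call, on 9619 rows with the status for tested genes, beside log2((FPKM + 1)/(FPKM + 1)) for rows with the larger FPKM at least 2. Classes (28, by symbol pattern) and 13 lists were described by counts and medians. The lists, classes and members were chosen with earlier results of these data known. Genes are named by rule: the 20 highest rows of each group with loci of at least 300 bases, the 15 widest ratios each way outside Gm and Rik models, small RNAs and joined rows, the 10 most abundant called genes each way, 2 highest and up to 3 called members per class, the 6 families and 3 windows at each end, and the markers; others (subunit sums, Hist3h2a, Rps27, Ndufb3, Hibadh, single erythroid and globin genes) were chosen after their values were seen. Some genes named by this rule are not reported here. The table's locus is an interval that 4243 rows share with another row, so the 300-base limit does not remove small RNAs listed with their host gene. The table is sorted by gene name, so chromosomes were put in text order of their names. Of 10352 genes past the floor 80.7% matched a RefSeq promoter, by symbol or a synonym. No per-sample column was left unused (0). Alternatives changed the pseudocount, the floor, the loci, the centring, the threshold and the window and family sizes. Calculations used Python 3.11.15, pandas 2.3.3, NumPy 2.4.6 and matplotlib 3.10.9. The 2-fold count and the window step were tested on simulated data with planted shifts, and the other steps were not.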

Additional observations from a re-analysis of the deposited data

How the results depend on the processing

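No paired analysis was possible because the authors give 1 pooled value per group; for the same reason no replicate could be left out. Of 136 recomputed medians over 17 of the classes and lists, 133 kept their direction, 2 came to exactly 0, and 120 moved by at most 0.1. Part of this tally was fixed by construction. Centring on the median of all genes takes the same 0.02 off every class. Keeping tested rows alone left classes such as cytosolic ribosomal proteins with the same members. The one that turned was that of clustered histones, 0.07 on the deposited scale and -0.053 after centring on each chromosome; the cause was not tested.

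With a pseudocount of 5 FPKM, 109 rows were at least 2-fold higher and 120 lower (168 and 247 as reported), and medians were -0.17 for KLF and SP factors, -0.17 for erythroid regulators, -0.38 for immediate early genes and -0.29 for globins. With no floor, medians were -0.090 for KLF and SP factors, 0 for small noncoding RNAs, 0 for olfactory and vomeronasal receptors, -0.15 for immediate early genes, -0.19 for globins and 0.10 for megakaryocyte markers, because rows at or near 0 in both groups enter. With a floor of 10 FPKM, 147 rows were 2-fold lower, medians were -0.31 for olfactory and vomeronasal receptors and -0.37 for globins, and the lowest window stood at -0.62. With tested rows alone, 92 rows were 2-fold higher, and medians were -0.26 for small noncoding RNAs and -0.37 for globins. Globins stood at -0.58 in loci of at least 1000 bases.

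A q-value below 0.01 left 34 rising and 111 falling genes in the authors' deposited table, and q below 0.05 with at least 2-fold left 20 and 61. The lowest window stood at -0.49 with 31 genes. Families of at least 20 genes ranged from -0.15 to 0.31. Chosen after seeing the data, leaving out small noncoding RNA rows gave 73 rows higher and 152 lower and shares of 15.2% and 15.4% for the 100 highest rows (31.1% and 36.7% with them), and leaving out loci under 7500 bases put the lowest window at -0.57. The cause of these moves was not tested beyond fewer rows entering.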

Other observations

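Several gene families that belong to other tissues had members past the floor and median ratios below 0. The prolactin family, placental hormone genes in a cluster on chromosome 13, had 9 of 26 measured members past 2 FPKM, each at its own locus, with median levels of 7.54 FPKM in J2E and 3.61 FPKM in J2E-KLF3-ER. All 9 had ratios below 0, the widest being Prl6a1 at 8.14 and 2.64 FPKM, yet of the 7 tested none was called in the authors' deposited table. The floor takes the larger group value, so a member can pass through 1 group alone. Prl8a2 (2.89 and 0.963 FPKM) and Prl7a2 (3.76 and 1.03 FPKM) passed through J2E alone, so their ratios below 0 were bound to follow. Protocadherin beta genes, neuronal adhesion genes, had 15 of 22 past the floor, all below 0 and none called in the authors' deposited table; the table lists all 15 under 1 shared interval, so they are not separate loci. Vomeronasal receptors had 18 of 330 past the floor with 14 below 0, keratin-associated proteins 12 of 52 with 8 below 0, and olfactory receptors 46 of 1117 with 29 below 0. In each of these receptor and keratin-associated families the lowest member value was under 2 FPKM in both groups. Some members therefore passed through 1 group alone, which fixed the direction of their ratios. Krtap12-1, at 3.43 and 1.68 FPKM, passed through J2E alone. How many others did so was not counted. One keratin-associated gene, Krtap10-10, and 1 olfactory receptor gene, Olfr399, fell in the authors' deposited table, from 13.2 to 6.35 FPKM and from 22.2 to 8.03 FPKM.

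The lowest windows along the genome held members of 3 of these families, the prolactin, protocadherin beta and keratin-associated genes. These windows rest on the same ratios as the families and are not a separate observation. In windows of 15 consecutive genes past the floor, with each chromosome's median taken off, the lowest lay on chromosome 13 from 24909823 to 28243464 (mm9) at a median of -0.95, where prolactin genes sit beside Mrs2, at 9.34 and 14.3 FPKM, and Tdp2, at 11.5 and 16.2 FPKM. The next lowest were the protocadherin beta rows of 1 interval (-0.57) and a window on chromosome 10 from 77178551 to 77526360 (-0.51) that holds Krtap genes with Aire, at 38.4 and 24.1 FPKM, and Dnmt3l, at 24.2 and 16.8 FPKM. The highest lay on chromosome 19 from 6341249 to 7114516 (0.35), with Esrra, Prdx5, Vegfb and Bad, and none of the 4 was called in the authors' deposited table. The other two at that end were on chromosome 11 from 62418385 to 68718036 (0.34) and on chromosome 19 from 8911418 to 9210056 (0.30). Across 10070 windows the quartiles were -0.07 and 0.06, and 53.9% of 10314 neighbouring pairs lay on the same side of their chromosome's median. The windows were picked by their values and carry no test.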
